A study of Mus musculus with 18 samples.

Results

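The mouse miR-297, miR-466, miR-467 and miR-669 families were examined in BV-2 cells, an immortalised mouse line of microglia, the phagocytes that live in the brain. Every row named miR-297, miR-466, miR-467 or miR-669 was taken, whatever its letter or copy number. This gave 161 of the 2134 rows of the miRNA sequencing tables. Of these, 81 were rows of hairpin precursors (written mir-) and 80 were rows of mature miRNAs (written miR-). The rule used names and no measured value.

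The series held 18 samples in 6 groups of 3. These were untreated control cells, cells given lipopolysaccharide (LPS, a bacterial wall component that activates microglia) at 100 ng/ml, cells given cannabidiol (CBD) or Δ9-tetrahydrocannabinol (THC) at 10 µM, and cells given either cannabinoid before LPS (CBD+LPS and THC+LPS). Cannabinoids were present for 6 h in all and LPS for the last 4 h. Samples are named by group and by the number in their label, 22 to 39, and whether the 3 of a group came from separate cultures was not stated in the labels, so p-values measure the spread between these samples.

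A miRNA gene is transcribed as a longer RNA that folds into a hairpin, from which Dicer cuts mature miRNAs of the 5′ and 3′ arms (5p and 3p in their names). Bases 2 to 8 of the mature miRNA, its seed, do most of the pairing with target mRNAs. The miR-297, miR-466, miR-467 and miR-669 families are rodent miRNAs best known as a large tandem array within an intron of Sfmbt2, a Polycomb-group gene that is imprinted in mouse placenta, and they are known for expression in embryonic stem cells and placenta. Their precursors are rich in short repeats such as UG and CA, so many of them differ by few bases.

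The sequences show this repeat character. RefSeq sequences (assembly GRCm38.p6) were found for 8 of the 80 mature names, and all 8 were from genes outside Sfmbt2. They are printed in full because near-identity bears on how reads could be assigned to rows, with the seed in capitals.
miR-467h: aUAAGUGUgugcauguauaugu
miR-466k: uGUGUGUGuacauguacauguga
miR-466j: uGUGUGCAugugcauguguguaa
miR-669n: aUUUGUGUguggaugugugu
miR-466q: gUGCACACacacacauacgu
miR-466i-3p: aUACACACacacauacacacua
miR-467f: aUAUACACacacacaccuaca
miR-467g: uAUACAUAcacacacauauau
Each of the 8 held a run of at least 6 bases that alternated between the same pair of bases, whereas 54 of all 1679 mature names in that reference did (3.22%). The first 4 were rich in G and U (from 68.2% of bases in miR-467h to 90.0% in miR-669n). The last 4 were rich in C and A (from 70.0% in miR-466q to 86.4% in miR-466i-3p). The most alike pair was miR-467g and miR-467f, with 17 of 21 positions the same (81.0%). The 8 seeds all differed from each other, so a shared family name did not mark a shared seed among these 8. The other 72 mature names, which include all those of Sfmbt2, had no sequence. Whether they share seeds could not be examined. The seed UAAGUGU of miR-467h was also that of a non-member, miR-668-5p, which had 5 reads in all samples together.

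The precursors carried the repeats beyond the mature part. The mir-467h hairpin (chr9:115381819-115381939, GRCm38, plus strand) is printed because its mature miRNA had the most reads of all members, and the mir-466k hairpin (chr3:85467377-85467498, plus strand) because it held an alternating run of 23 bases. Capitals mark the mature miRNA.
mir-467h: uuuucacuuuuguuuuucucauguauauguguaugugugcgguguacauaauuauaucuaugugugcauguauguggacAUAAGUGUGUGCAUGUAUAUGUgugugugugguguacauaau
mir-466k: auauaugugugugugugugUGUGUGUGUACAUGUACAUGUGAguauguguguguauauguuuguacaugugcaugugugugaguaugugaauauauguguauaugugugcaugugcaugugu
The longest alternating run of the mir-467h hairpin was 12 bases.

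In the annotation (GENCODE M21, GRCm38), 71 of the 81 hairpins lay in introns of Sfmbt2 on the strand of that gene, within 51617 bases at chr2:10466663-10518279. The other 10 lay elsewhere in the genome. Reads did not follow this layout. The 137 rows that belong to Sfmbt2 hairpins alone held 495 of the 1442 reads of the members (34.3%), whereas the 19 rows of genes elsewhere held 908 (63.0%). The remaining 5 rows, whose names cover copies in both places, held 39 (2.70%). A single row from elsewhere, the mature miR-467h, held 523 reads. Of the 919 reads of all other members, the Sfmbt2 rows held 495. The name of an Sfmbt2 cluster therefore covered most of these rows, but most of their reads only with miR-467h left out. The rows are called members below.

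The members were scarce. Their 1442 reads were 0.0105% of the 13670564 reads in the 18 samples, and a member had a median of 2 reads over all samples, compared with 25 for the other 1973 rows. No read at all was found for 35 members (21.7%, against 3.04% of other rows), and these 35 were all Sfmbt2 rows. A further 103 members had 1 to 9 reads. Only 23 members (14.3%) reached 10 reads over the 18 samples, the minimum for a test here, compared with 67.9% of other rows. At the edge of this limit stood mir-467h with 10 reads, and 5 members with 9. Among hairpin rows 16 of 81 members passed (19.8%, against 80.9% of other hairpins), and among mature rows 7 of 80 (8.75%, against 59.5% of other mature rows).

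Values are TMM-scaled CPM, that is, reads relative to the library size and an edgeR scaling factor. Library totals ran from 442718 to 1057147 reads. Since 3 reads are the limit that a count of 0 allows, levels below 2.98 to 6.38 CPM, depending on the sample, cannot be told from 0 (counting error only). A sample held 30 to 135 member reads, spread over 14 to 46 members. Of the 161 members, 137 never reached 3 reads in any sample, 3 had a read in every sample, and only miR-467h had at least 3 reads in every sample.

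Libraries that stand apart were looked for first. Within each of the 5 treated groups, the sample numbered 23 to 27 differed from each of the other two over all rows (chi-square divided by its degrees of freedom 41.3 to 98.6, where 1 would be counting error alone), whereas for those other two it was 3.04 to 9.73. In the control it was 51.6 to 94.5 for all 3 pairs. The hairpins mir-6243, mir-6240 and mir-6236 took 0.151% to 4.55% of the reads. Their share was lowest in control 22, CBD 30, CBD 36 and THC+LPS 27. The blood-lineage miRNAs miR-142-5p and miR-142-3p were high in every sample (at least 7254 and 1486 CPM). The 5 listed blood-lineage markers summed to 8988 to 15760 CPM. Of these, miR-223-3p had 48.5 to 178 CPM, miR-223-5p 1.43 to 17.2 and miR-150-5p 1.15 to 12.6. Markers of pluripotent cells and trophoblast were near 0 (6 listed, 0 to 7.51 CPM summed, with miR-302a-3p at 0 in all 18 samples). Of the other lists, epithelial miRNAs summed to 5638 to 9246 CPM, which was mostly miR-141-3p. Neuronal ones summed to 419.6 to 666 CPM, mostly miR-128-3p (409 to 651 CPM). miR-124-3p, also neuronal, had 4 reads and was 0 in 15 samples, and miR-9-5p had 2.98 to 14.9 CPM. Endothelial miR-126-3p had 72.1 to 161 CPM. Glial miRNAs summed to 31.6 to 155 CPM, mostly miR-338-3p (30.4 to 146 CPM). Muscle, liver and erythroid miRNAs stayed at or below 4.74 CPM.

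The 3 members with the most reads all came from outside Sfmbt2. The mature miR-467h, from a hairpin outside any other annotated gene, had 523 reads, 36.3% of all member reads. The mir-466q hairpin row had 153 reads. It lies in an intron of Tnik, a kinase gene, on the same strand (chr3:28419943-28420018, plus strand). The mature miR-466i-5p had 66 reads, and its hairpin lies in an intron of Cdk13, a cyclin-dependent kinase gene, on the opposite strand (chr13:17747473-17747593, plus strand). These were also the only members with a read in every sample.

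**Figure D1:**
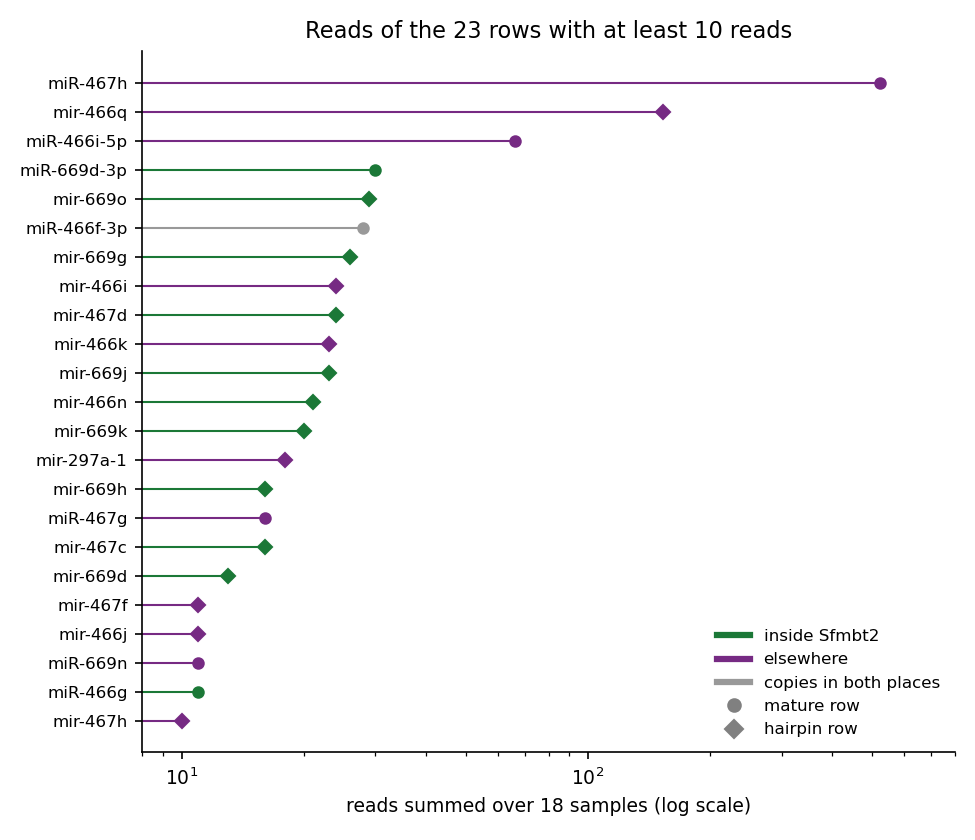
Reads summed over 18 samples (log axis) for the 23 members with at least 10 reads, circles for mature and diamonds for hairpin rows, coloured by place in the genome. miR-467h (523), mir-466q (153) and miR-466i-5p (66), all from outside Sfmbt2, stand to the right of the other 20, which have 10 to 30 reads.

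By family, the miR-467 mature rows had 557 reads over 13 rows, of which miR-467h alone gave 523. The 28 hairpin and 31 mature rows of miR-466 had 304 and 180 reads. The 30 hairpin and 30 mature rows of miR-669 had 178 and 98 reads, with mir-669o (29) and miR-669d-3p (30) leading. The miR-297 family had 41 reads over 6 hairpin rows and 10 over 6 mature rows, led by mir-297a-1 (18), which lies outside any other annotated gene on chromosome 7.

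Hairpin and mature rows of a locus did not go together. How a read that fitted both a hairpin and its mature arm was counted is not given in the sources used here. Reads on a hairpin row are therefore not taken as evidence of a mature miRNA. For miR-467h, 10 reads were on the hairpin row and 523 on the mature row. The order was the opposite for mir-466q, with 153 on the hairpin row and 4 on the mature row. Of 38 hairpins with mature rows of the same name, 23 had more reads on the hairpin row, 13 on the mature rows and 2 the same on both. The mature name miR-669d also covers a second hairpin, mir-669d-2, which was counted apart. The hairpin rows mir-669g, mir-467d, mir-466k and mir-467c had 26, 24, 23 and 16 reads against 1, 2, 1 and 1 on their mature rows. mir-669k had 20 reads against 0. Besides miR-467h, the mature rows led for mir-466i (72 reads against 24 on the hairpin), mir-669d (31 against 13), mir-467g (16 against 5), mir-669n (11 against 5) and mir-466g (11 against 3).

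Within Sfmbt2 the reads lay on hairpins with a name of their own rather than on numbered copies. The 44 hairpins of names with several copies (such as mir-467a-1 to mir-467a-10) had 74 reads together, a median of 1, and 20 of them had none. The 27 hairpins with a name of their own had 254 reads, a median of 6, and 1 of them had none. These 27 included 8 of the 9 hairpins in Sfmbt2 with at least 10 reads, in order of reads mir-669o, mir-669g, mir-467d, mir-669j, mir-466n, mir-669k, mir-467c and mir-669h. The ninth, mir-669d (13 reads), has a second copy, mir-669d-2 (2 reads).

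**Figure D2:**
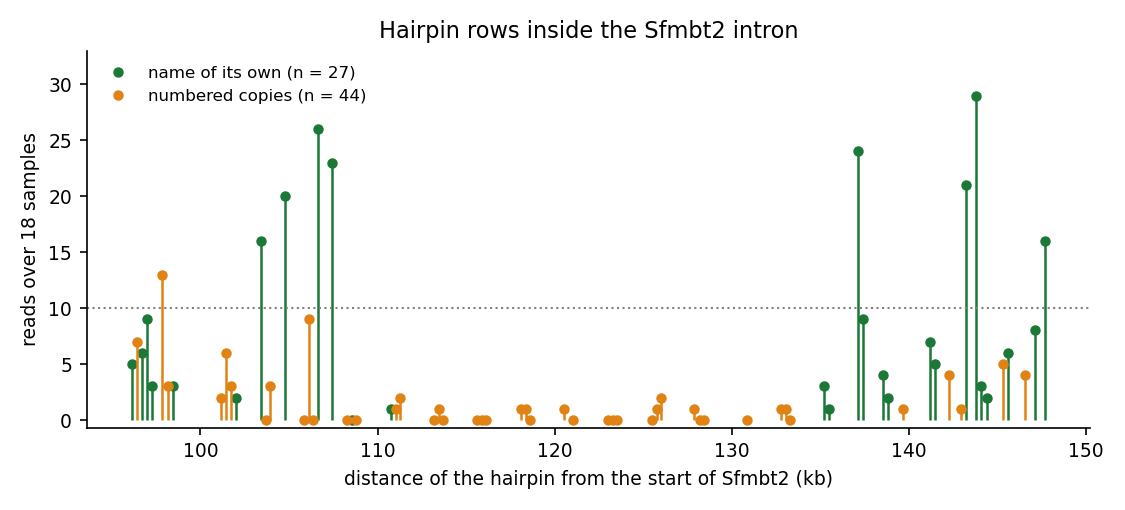
Reads over 18 samples for each of the 71 hairpin rows inside the Sfmbt2 intron, by distance from the start of Sfmbt2 in kb, with the dotted line at 10 reads. The 44 numbered copies (orange) have at most 13 reads and a median of 1, and the 27 hairpins with a name of their own (green) have up to 29 and a median of 6.

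The names with the most copies had few reads for their number. The 10 copies of mir-467a had 4 reads together and 6 of them had none. The 12 copies of mir-669a had 6 reads and 9 had none, and the 8 copies of mir-466b had 12 reads and 4 had none. Reads were aligned allowing at most 10 mappings each, and mir-669a has more copies than that limit. How a read that fitted several copies was counted is not given in the sources used here, but in none of the 9 names with several hairpins did the copies have the same reads in every sample. For these rows a low count cannot be told apart from reads lost to multiple mapping, and counts of single copies are uncertain.

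The question put to the members was whether LPS, either cannabinoid, or the combination changed them. The values are shares of the miRNA reads of whole cultures. Fewer cells that express a member and less of it per cell therefore cannot be told apart. Summed over the 161 members, the level was 108.4 ± 39.8 CPM in control, 114.9 ± 18.5 with THC, 91.4 ± 17.2 with CBD, 111.5 ± 19.8 with LPS, 96.7 ± 5.68 with THC+LPS and 99.3 ± 30.7 with CBD+LPS (SD, n = 3 each). The group means thus spanned 91.4 to 114.9 CPM. Single controls spanned more, with 63.8 in control 22, 140.2 in control 28 and 121.2 in control 34.

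The Sfmbt2 rows and the rows elsewhere were also summed apart. The 137 Sfmbt2 rows gave 39.1 ± 14.9 CPM in control, 43.6 ± 15.1 with THC, 24.5 ± 8.99 with CBD, 37.5 ± 2.34 with LPS, 31.8 ± 3.28 with THC+LPS and 34.6 ± 14.01 with CBD+LPS (SD, n = 3 each). In CBD the 3 samples had 34.4, 16.9 and 22.1 CPM (47 reads in all), and in control 23.4, 53.0 and 40.8 CPM (77 reads), so the groups overlapped. The lowest values belonged to CBD 30, CBD 36 and control 22, which were also 3 of the 4 libraries with the lowest share of mir-6243, mir-6240 and mir-6236 (0.16%, 0.151% and 0.204%). The part of that share in these sums was not tested. The 19 rows elsewhere gave 66.4 ± 26.3 CPM in control, 66.9 ± 5.56 with THC, 64.2 ± 8.45 with CBD, 72.4 ± 18.3 with LPS, 61.4 ± 2.43 with THC+LPS and 62.1 ± 17.5 with CBD+LPS (SD, n = 3 each).

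**Figure D3:**
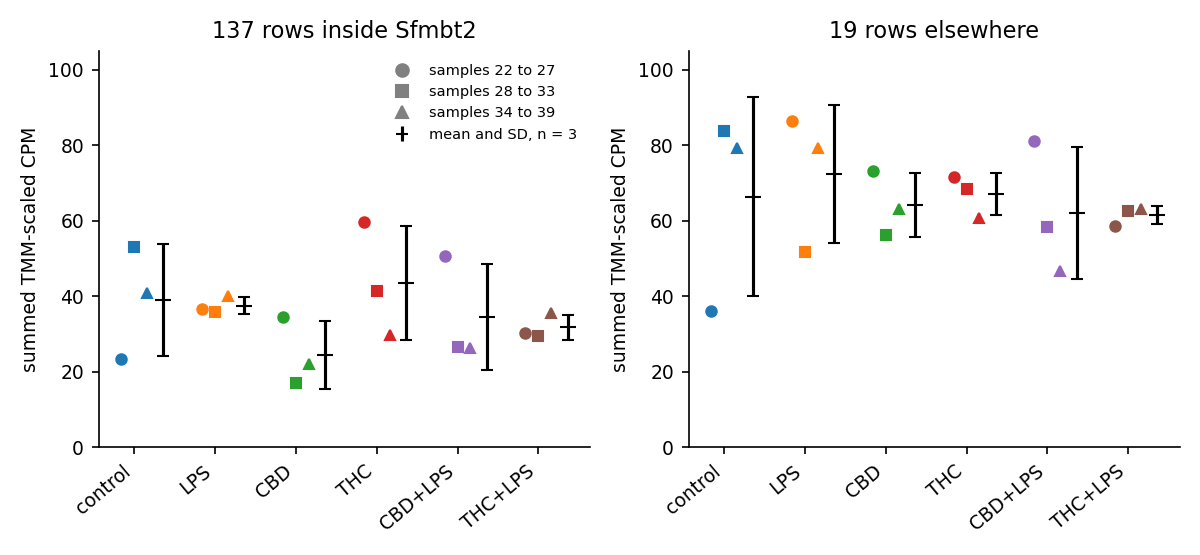
Summed TMM-scaled CPM of the 137 Sfmbt2 rows (left) and the 19 rows elsewhere (right) in each sample, by group, with the mean and SD (n = 3) beside the points. Marker shapes show the label numbers, and every treated group overlaps the control samples in both panels.

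No member was called in any comparison. A member was called in a pair of groups at a limma p of at most 0.005 with a change of at least 1.5-fold, and over all 6 groups or for an interaction where the adjusted p did not exceed 0.1, in a model of log2(CPM + 1) fitted to all 1363 rows with 10 reads. Of the 23 members tested, 0 were called over the 6 groups, where 1.76% of all rows were. Against control, 0 were called for THC (0.44% of all rows), 0 for CBD (1.61%), 0 for LPS (1.54%), 0 for THC+LPS (1.83%) and 0 for CBD+LPS (1.39%). Against LPS, 0 were called for CBD+LPS (0.22%) and 0 for THC+LPS (0.22%). At these shares fewer than 1 of 23 rows would be called in each, so the counts of 0 do not set the members apart. For the interaction of either cannabinoid with LPS, 0 members and 0% of all rows were called. edgeR's quasi-likelihood test and DESeq2 on the recovered reads also called 0 members in each. Below 60 reads, where most of these members lay, limma called 9.59% of rows changed 4-fold in simulated data. A count of 0 therefore does not exclude a large change.

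At an unadjusted p of at most 0.05 in limma, 1 of the 23 members passed over the 6 groups (8.36% of all rows did). Against control 3 members passed for THC (3.37% of all rows), 2 for CBD (9.17%), 0 for LPS (5.87%), 1 for THC+LPS (4.77%) and 1 for CBD+LPS (6.31%). None passed against LPS, 1 passed for the interaction of CBD with LPS (mir-669d, with a limma p of 0.0321 and an adjusted p of 0.909) and 0 for that of THC. The smallest adjusted p of any member in these limma tests was 0.274. The median log2 fold change of the 23 members against control was 0.25 with THC, −0.33 with CBD, 0.37 with LPS, 0.04 with THC+LPS and −0.15 with CBD+LPS. Over all 1363 rows it was 0.08, 0.00, 0.11, 0.03 and 0.04 in the same order. The all-row value for LPS became −0.02 with library size in place of TMM.

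**Figure D4:**
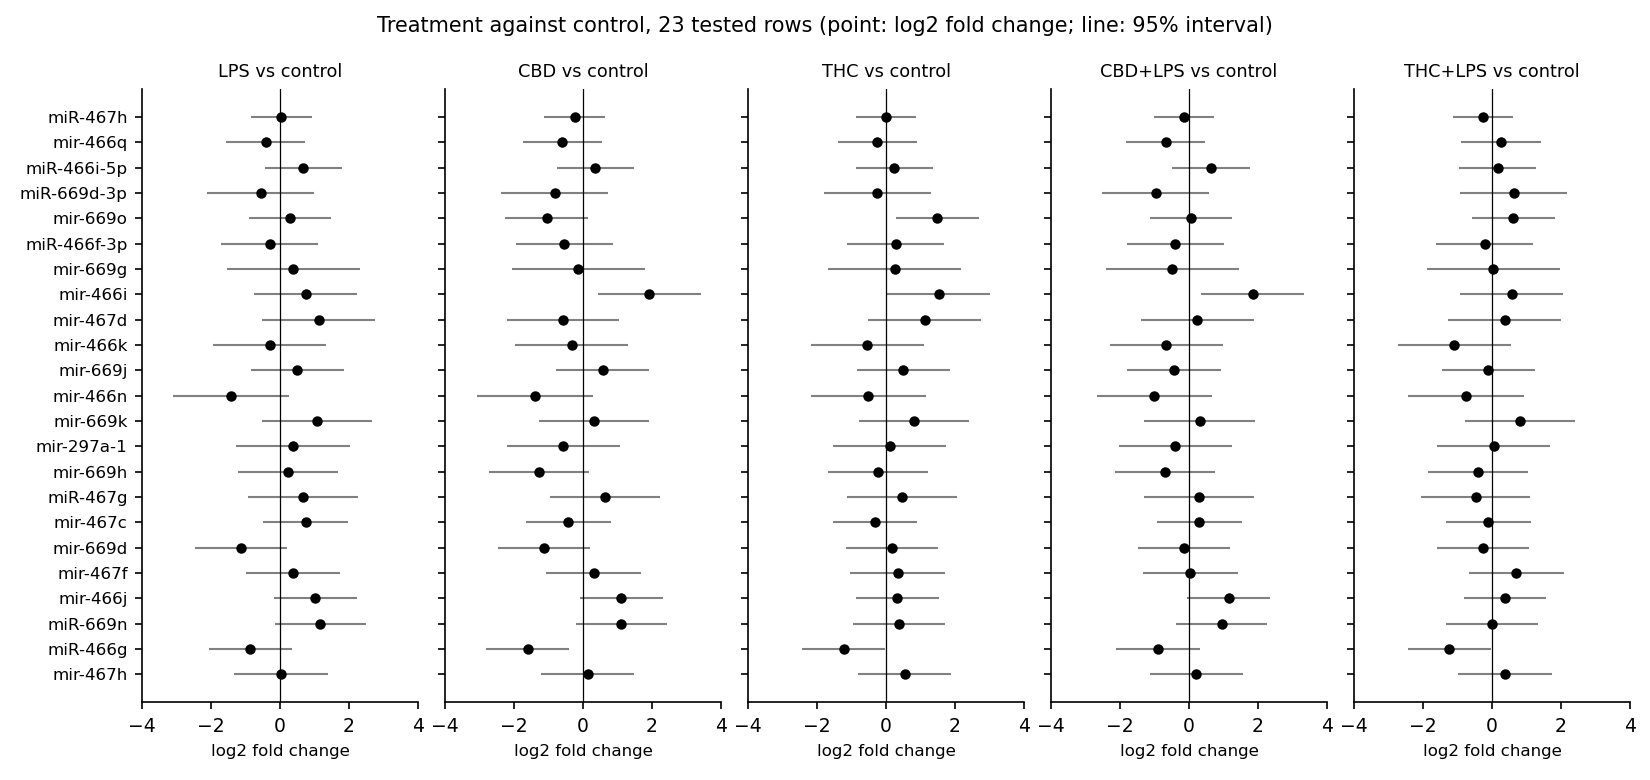
log2 fold change of log2(CPM + 1) for the 23 tested members in each treatment against control (point) with its 95% interval (line), in order of reads from the top. Intervals of the 3 leading members all cross 0, and the few that do not are those of mir-669o, mir-466i and miR-466g.

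miR-467h did not differ between groups beyond the spread of its samples. It had 23.4, 44.5 and 53.6 CPM in controls 22, 28 and 34, and 54.9, 25.2 and 43.3 CPM in LPS 23, 29 and 35. It had 54.5, 24.4 and 25.3 CPM in CBD 24, 30 and 36, and 43.8, 36.6 and 35.1 CPM in THC 25, 31 and 37. It had 55.3, 29.2 and 25.2 CPM in CBD+LPS 26, 32 and 38, and 24.9, 29.6 and 43.6 CPM in THC+LPS 27, 33 and 39. High and low samples thus occurred in nearly every group, and all groups overlapped.

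In order of the mean, LPS (41.1 ± 15.0 CPM) and control (40.5 ± 15.5) were followed by THC (38.5 ± 4.62), CBD+LPS (36.6 ± 16.3), CBD (34.7 ± 17.1) and THC+LPS (32.7 ± 9.72) (SD, n = 3 each). No neighbours in this order differed beyond their spread. Fold changes of miR-467h against control were between 0.83 (THC+LPS, 95% interval 0.45 to 1.54) and 1.02 (LPS, 0.55 to 1.89). For CBD the fold was 0.85 (0.46 to 1.57), for THC 1.001 (0.54 to 1.85) and for CBD+LPS 0.90 (0.49 to 1.67). Against LPS it was 0.88 for CBD+LPS (0.48 to 1.63) and 0.82 for THC+LPS (0.44 to 1.51). Across the 6 groups the limma F test gave an adjusted p of 0.9997. A 1.5-fold rise lay within all 7 of these intervals, so a rise of that size was not excluded here.

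The controls of miR-467h differed with the sample number. Among the samples numbered 28 to 39, both controls (44.5 and 53.6 CPM) lay above all 10 treated samples (24.4 to 43.6 CPM), whereas among those numbered 22 to 27 control 22 was the lowest of the 6 (23.4 CPM against 24.9 to 55.3). Control 22 was the shallowest library, with 11 reads of miR-467h. In samples 28 to 39 alone, the CBD value was −0.95 on the log2 scale against control (a limma p of 0.00794 and an adjusted p of 0.0552), which was not below 0.005, and in that setting 153 of all rows were called for CBD.

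mir-466q also overlapped between groups. It had 8.51, 18.8 and 12.8 CPM in control, 6.96, 15.3 and 10.8 with THC, 2.87, 15.02 and 11.1 with CBD, 10.5, 5.30 and 14.4 with LPS, 17.8, 22.5 and 9.17 with THC+LPS and 9.02, 7.97 and 5.998 with CBD+LPS. THC+LPS had the highest mean (16.5 ± 6.74 CPM) and CBD+LPS the lowest (7.66 ± 1.53) (SD, n = 3 each). CBD+LPS was 0.62-fold of control (95% interval 0.28 to 1.38, adjusted p = 0.971 in limma). THC+LPS was 1.59-fold of LPS (0.72 to 3.53, adjusted p = 0.9998 in limma). In both comparisons the samples of the groups overlapped, and neither was called.

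**Figure D5:**
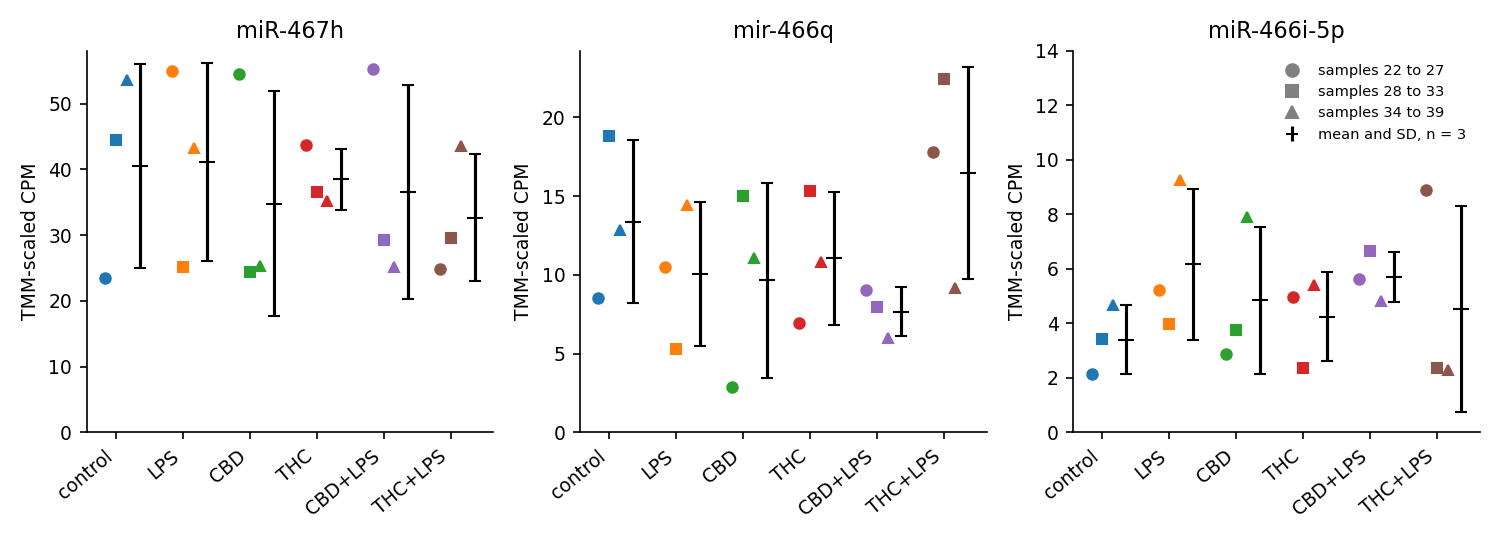
TMM-scaled CPM of miR-467h, mir-466q and miR-466i-5p in each of the 18 samples, by group, with the mean and SD (n = 3) beside the points and marker shapes for the label numbers. For miR-467h the samples spread from 23.4 to 55.3 CPM and overlap in all 6 groups.

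miR-466i-5p stood near the detection limit, at 1 to 9 reads per sample. It had 1, 2 and 4 reads in control, 5, 2 and 4 with THC, 2, 2 and 5 with CBD, 4, 3 and 9 with LPS, 5, 2 and 2 with THC+LPS and 5, 5 and 4 with CBD+LPS. Means were 3.402 ± 1.27 CPM in control, 6.16 ± 2.77 in LPS and 5.69 ± 0.92 in CBD+LPS (SD, n = 3 each). The 3 CBD+LPS samples (4.80 to 6.64 CPM) lay above the 3 controls (2.13 to 4.66). In that comparison 3 of the 23 members, all higher, and 9.24% of all rows in either direction did not overlap between the groups. Its fold change there was 1.56 (95% interval 0.71 to 3.38, adjusted p = 0.971 in limma), and for LPS against control it was 1.60 (0.73 to 3.47, adjusted p = 0.966).

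The 3 members with the smallest F test p-values over the 6 groups were mir-669o (adjusted p = 0.274 in limma), mir-466i (adjusted p = 0.628) and miR-466g (adjusted p = 0.729). None passed the adjustment. All 3 had few reads, so reads are given in place of CPM.

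mir-669o (chr2:10514300-10514395, plus strand, in Sfmbt2) was the hairpin in that gene with the most reads. It had 0, 1 and 2 reads in control, 6, 4 and 3 with THC, 0, 0 and 0 with CBD, 1, 1 and 2 with LPS, 2, 2 and 1 with THC+LPS and 3, 1 and 0 with CBD+LPS. The 3 THC samples (4.05 to 5.97 CPM) lay above the 3 controls (0 to 2.33 CPM). In that comparison 2 of the 23 members were higher and 1 lower without overlap between the groups. Of all rows, 6.82% did not overlap in either direction. For mir-669o the difference was 1.49 ± 0.57 (SE) on the log2(CPM + 1) scale, with a limma p of 0.0172 and an adjusted p of 0.977. The ratio of the summed reads, 13 in THC against 3 in control, was 3.20 after scaling, with a 95% counting interval of 0.88 to 17.5 (exact binomial), which included 1. THC 25 was also the library with the highest share of mir-6243, mir-6240 and mir-6236 (4.55%) and the most member reads (135). With the summed level of these hairpins as a covariate the difference was 1.31 on the log2 scale, and 0 members were called. It was 0.84 in samples 28 to 39 alone (a limma p of 0.231) and 0.96 without control 22.

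mir-466i and miR-466g lay at the limit of 3 reads, so no fold is given. mir-466i had 0 reads in all 3 controls, 2, 1 and 2 with THC, 3, 5 and 0 with CBD, 1, 0 and 1 with LPS, 0, 0 and 2 with THC+LPS and 3, 1 and 3 with CBD+LPS. Against control its p was 0.0149 in CBD (adjusted p = 0.357 in limma), 0.0463 in THC (adjusted p = 0.977) and 0.0187 in CBD+LPS (adjusted p = 0.533). A count of 0 in a control allows up to 3.50 to 6.38 CPM, depending on the sample, and only CBD 30 (9.39 CPM) exceeded that range. That limit is for single samples. The limit for the summed reads of the 3 controls is lower and was not computed, so the range does not decide the comparison of groups. Every THC and CBD+LPS sample had a read of mir-466i, whereas CBD 36 had 0. miR-466g, a mature row of Sfmbt2, had 1, 1 and 2 reads in control, 0, 1 and 0 with THC, 0 in all 3 CBD samples, 0, 1 and 1 with LPS, 0, 0 and 1 with THC+LPS and 3, 0 and 0 with CBD+LPS. Against control its p was 0.0123 in CBD (adjusted p = 0.311 in limma), 0.0466 in THC (adjusted p = 0.977) and 0.0454 in THC+LPS (adjusted p = 0.952).

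The other hairpins in Sfmbt2 with at least 10 reads likewise had 0 to 6 reads per sample. mir-669g (26 reads) had 0, 1 and 2 reads in control, 4, 0 and 0 in CBD and 6, 1 and 0 in THC, with its highest counts in CBD 24 and THC 25. mir-467d (24 reads) had 0, 0 and 2 in control, 2, 1 and 3 in LPS, 0 in all 3 CBD samples and 5, 4 and 0 in THC. mir-466n (21 reads) had 0, 4 and 4 in control, 1, 0 and 0 in LPS, 1, 0 and 0 in CBD, and 4, 0 and 0 in CBD+LPS.

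mir-466n was the 1 tested member that was called when samples 22 to 27 were left out. Over all samples it was −1.42 in LPS (adjusted p = 0.901 in limma) and −1.40 in CBD (adjusted p = 0.5999) on the log2 scale against control. With samples 28 to 39 alone, where the 2 controls had 4 reads each and the LPS, CBD and CBD+LPS samples none, it was −2.74 in each of the 3 (with a limma p of 0.00097), and was called. Beside it 37, 153 and 53 of all rows were called there for LPS, CBD and CBD+LPS, compared with 21, 22 and 19 over all samples, and 248 against 24 over the groups.

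Members with 0 reads throughout a group were counted as a description. Of the 23 tested members, 5 had no read in any CBD sample, namely miR-466g, mir-467d, mir-669d, mir-669h and mir-669o, all Sfmbt2 rows. The number was 3 in control (mir-466i, mir-466j and miR-669n, all from elsewhere), 1 in LPS (mir-669d), 2 in THC+LPS (miR-467g and miR-669n) and 0 in THC and CBD+LPS. The share of all tested rows with 0 reads throughout a group was not computed. These numbers therefore do not show whether any group, or either place in the genome, was unusual. The groups differed in depth, with 1820230 reads in CBD and 1798336 in control against 2414328 to 2642267 in the others. Over all rows, the fewest had a read in control 22 (1016), CBD 30 (1100), THC+LPS 27 (1138) and CBD 36 (1157). A member with 10 to 30 reads over 18 samples averages fewer than 2 reads per sample, so 0 reads in 3 samples does not show that a member was absent.

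Of the mature members, miR-669d-3p (30 reads, Sfmbt2) and miR-466f-3p (28 reads, copies in both places) were found in 14 and 16 samples. miR-669d-3p had 0, 3 and 4 reads in control, 1, 1 and 1 in LPS and 3, 3 and 3 in THC+LPS. Its THC+LPS samples lay above its LPS samples (adjusted p = 0.9998 in limma), and they overlapped the controls. Between THC+LPS and LPS, 1 of the 23 members was higher and 1 lower without overlap, and 7.19% of all rows did not overlap in either direction. miR-466f-3p had 0 to 4 reads per sample, and all groups overlapped. The next were miR-467g (16 reads, of which 6 were in THC 25), miR-466g and miR-669n (11 each), miR-669c-3p (9), miR-466j (8), miR-669j and miR-669o-5p (7 each) and miR-466i-3p (6).

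The spread of the members over samples was compared with counting error as a description. With equal CPM in every sample as the expectation, chi-square per degree of freedom was 2.72 for miR-467h, 1.75 for mir-466q and 0.75 for miR-466i-5p, and 2.33 for all other members summed, over 18 samples. miR-466i-5p therefore varied about as much as counting alone allows, and miR-467h more. miR-467h had a median of 49.1 CPM in samples 22 to 27 (23.4 to 55.3, n = 6) and 32.3 CPM in samples 28 to 39 (24.4 to 53.6, n = 12).

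The non-member mature miRNAs whose levels ran most like the summed mature members were miR-5115 (Spearman's rho 0.77), miR-6237 (0.76) and miR-1893 (0.75). They were the highest of 423 candidates with at least 100 reads, over 18 samples that share library and depth. Of the 845 reads of the mature members, miR-467h alone held 523. With miR-467h alone the rho was 0.84 for miR-5115, 0.77 for miR-6237 and 0.82 for miR-1893. Likeness to the mature members without miR-467h was not computed. Inside Sfmbt2 the annotation also held 48 miRNA genes that are not members, and none matched a row of the tables by name.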

How the data were processed

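Small-RNA libraries of 18 BV-2 samples were sequenced on an Illumina HiSeq instrument. Per the study's methods the authors aligned reads to the mouse miRBase sequences with BWA at a limit of 10 mappings to a read. They quantified expression from the total reads that aligned to known mouse miRNAs. How reads were split between hairpin and mature rows is not given in the sources used here. The BWA version and the miRBase release used for alignment are not given there either. The deposited signal of each sample is TMM-scaled CPM, that is, reads relative to library size times an edgeR TMM factor. Whole reads were recovered for 100% of values (tolerance 0.001 read), which gave library totals of 442718 to 1057147.

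Members were the rows whose names matched the 4 families; the members and lists were chosen with earlier results of these data known. Rows with at least 10 reads over 18 samples were tested on log2(CPM + 1) in limma 3.58.1 (mean-variance trend, all 6 groups in 1 model, Benjamini-Hochberg adjustment, R 4.3.3), with calls at a limma p of at most 0.005 and 1.5-fold, or an adjusted p of at most 0.1. The recovered reads were also tested with edgeR 4.0.16 and DESeq2 1.42.0. Other alternatives were pseudocount 2, a 1-read filter, RLE factors or library size alone, a covariate for samples 22 to 27, samples 28 to 39 alone, a covariate for the mir-6243, mir-6240 and mir-6236 level, and each sample left out. The scripts were tested on simulated data. In simulated reads with 200 of 1363 rows changed 4-fold, limma called 48.5% of the changed rows. Of the 73 changed rows below 60 reads it called 9.59%. Named members were the 12 mature and 6 hairpin rows with the most reads, every member called, and the 3 with the smallest F test p. Others, such as mir-466n and mir-467c, were named after their values were seen. Gene positions came from GENCODE M21 (GRCm38) by gene name, and sequences from RefSeq (GRCm38.p6); 8 mature and 4 hairpin members were matched by name.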

Additional observations from a re-analysis of the deposited data

How the results depend on the processing

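Of 90 counts of called members under the other settings (10 comparisons, 9 settings), 83 were 0 as in the tests reported. With a 1-read filter 1 member, mir-466b-8, was called for LPS, 1 for CBD and 1 for CBD+LPS against control (the same row each time, with 9 reads), beside 27, 29 and 21 of all rows. With samples 28 to 39 alone 1 member, mir-466n, was called for the F test, 1 for LPS, 1 for CBD and 1 for CBD+LPS against control (248, 37, 153 and 53 of all rows). Leaving out each sample in turn gave 0 called members in 83 of 84 counts and a range of 0 to 1 for CBD, where mir-466i was called without CBD 36 (adjusted p = 0.116 in limma), beside 15 of all rows.

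For miR-467h the sign of log2 values near 0 turned. LPS against control went from 0.03 to −0.065 with RLE factors, −0.12 with library size, −0.093 in DESeq2, −0.55 in samples 28 to 39 and −0.16 with the mir-6243, mir-6240 and mir-6236 covariate. THC against control went from 0.00 to −0.00038 with pseudocount 2, −0.024 with RLE factors, −0.092 in edgeR, −0.11 in DESeq2, −0.44 in samples 28 to 39 and −0.33 with that covariate. CBD against control became 0.26 with that covariate, and THC+LPS against LPS 0.12 in samples 28 to 39. With 1 sample left out the ranges were −0.31 to 0.34 for LPS, −0.60 to 0.0019 for CBD, −0.34 to 0.24 for THC, −0.49 to 0.0901 for CBD+LPS against control and −0.51 to 0.059 for CBD+LPS against LPS. The cause was not tested. Signs for mir-466q, miR-466i-5p, mir-669o and mir-466n, in the comparisons printed as differences or folds, held under every setting.

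Counted over mature rows alone, the summed level was 63.8 CPM in control, 63.95 with THC, 53.3 with CBD, 67.8 with LPS, 54.6 with THC+LPS and 60.3 with CBD+LPS. Over all members except miR-467h it was 67.9, 76.4, 56.7, 70.4, 64.04 and 62.7 CPM in the same order. Summing members of the same mature sequence was not run, because the reference held 8 of the 80 mature names and no such pair among these. No paired analysis was run, because each label number is used once and the labels tie no samples together. The numbers run through the groups in a repeated order, so sets of samples by number could have been fitted as blocks. Only samples 22 to 27 were fitted in that way, as a covariate, and no member was called there. Whether samples of such a set share a culture or a day is not given in the labels. Depth limits most members: 137 of 161 never reached 3 reads in a sample.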
